A study of Mus musculus with 221 samples.

Results

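The proteasome genes comprised 50 of the 55291 genes in the count table. They were chosen by symbol, as those that begin with Psm, a letter from a to g and a number, and 5 symbols ending in -ps, which mark pseudogene copies, were left out. The 50 symbols held 7 alpha-ring and 7 beta-ring subunits of the core particle, the 3 inducible subunits of the immunoproteasome, 2 tissue-specific core subunits, 9 base and 8 lid subunits of the regulatory particle, 3 chaperones of the base, 4 chaperones of the core, 6 activators or inhibitors and 1 gene, Psmc3ip, that the symbol rule picks up although its product is a meiotic recombination factor and no part of the proteasome.

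The proteasome is the protease complex that degrades proteins marked with ubiquitin. Its core particle is a barrel of stacked rings, in which alpha subunits gate the entrance and Psmb5, Psmb6 and Psmb7 carry the active sites on the inner face of the beta rings. Psmb8, Psmb9 and Psmb10 take the places of these catalytic subunits in immune cells and after interferon, and the resulting immunoproteasome supplies peptides for class I antigen presentation. The regulatory particle caps the core: its base holds the ATPases Psmc1 to Psmc6 that unfold substrates, and its lid holds Psmd14, which removes ubiquitin. In the early mouse embryo, degradation of oocyte proteins by this system accompanies the switch from maternal to embryonic control.

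Single early 2-cell embryos were profiled by Smart-seq2, a full-length method that amplifies polyadenylated RNA from one embryo per library. The comparison asked whether what a male eats before his sperm is collected changes his embryos: HFD embryos (55.2% of all embryos) had sires on a high-fat diet, and the 99 LFD embryos had sires on a low-fat diet, all of them C57BL/6N. All embryos came from in vitro fertilization of oocytes from unexposed C57BL/6N-mtST dams, so that every embryo carried C57BL/6N nuclear DNA and the Staudach mitochondrial genome. The paper used frozen and thawed sperm, from different males on each date. The labels gave neither sire, dam, collection day nor sex, so p-values treat embryos as independent and differences between individual sires cannot be told apart from diet. Embryos of both sexes were tested together.

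Library totals ranged from 1937251 to 17246791 counts (median 5706066), with 11364 to 21638 genes counted per embryo. The cell type was checked with marker lists: all 16 transcripts of the 2-cell stage (Zscan4 and Usp17l genes among them) and all 16 oocyte transcripts had a median count above 0, whereas 5 of 10 cumulus and 6 of 8 sperm markers had a median of 0, as had 3 of 6 later lineage markers (Gata6, Nanog and T). Of 12 macrophage markers, 6 (C1qa, C1qc, Tyrobp, Fcer1g, Ptprc and Adgre1) had a median of 0. Their summed level, as log2 of CPM (counts scaled to the library total), ran from 3.09 to 11.8 in HFD embryos (median 5.51) and from 3.13 to 6.52 in LFD embryos (median 5.56). In 11 HFD embryos it lay above every LFD embryo, by little in 2 of them (6.77 and 6.83) and at 8.10 or more in the others, and calls between the diets are given with and without those 11. The summed level of 7 Y-linked genes had a median of 5.43 in HFD and 3.57 in LFD embryos, so the share of male embryos may differ between the diets.

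The transcript levels of the core and regulatory particles were compared per length, as RPKM (CPM divided by the exon length in kilobases). Of the 50 genes, 44 passed the filter on low counts, and the others were Psmb8, Psmb9, Psma8, Psmb11, Psme2b and Psmg3. Within the core, median RPKM over all embryos spanned 9.89-fold, from 7.26 for Psma6 to 71.8 for Psmb6, and within the regulatory particle it ran from 2.28 for the lid subunit Psmd13 to 56.97 for the lid subunit Psmd3. Subunits that are assembled in equal numbers were far from equal in RPKM, as the plot of levels by class shows. The exon length is that of the annotation, and the length of the expressed mRNA was not measured. Order and spread in RPKM can therefore depend in part on annotation. In HFD embryos, Psmb1 averaged 63.2 CPM and Psmb5 13.8 CPM. With exon lengths of 4595 and 899 bases, their HFD medians were 11.8 and 13.1 RPKM.

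**Figure D1:**
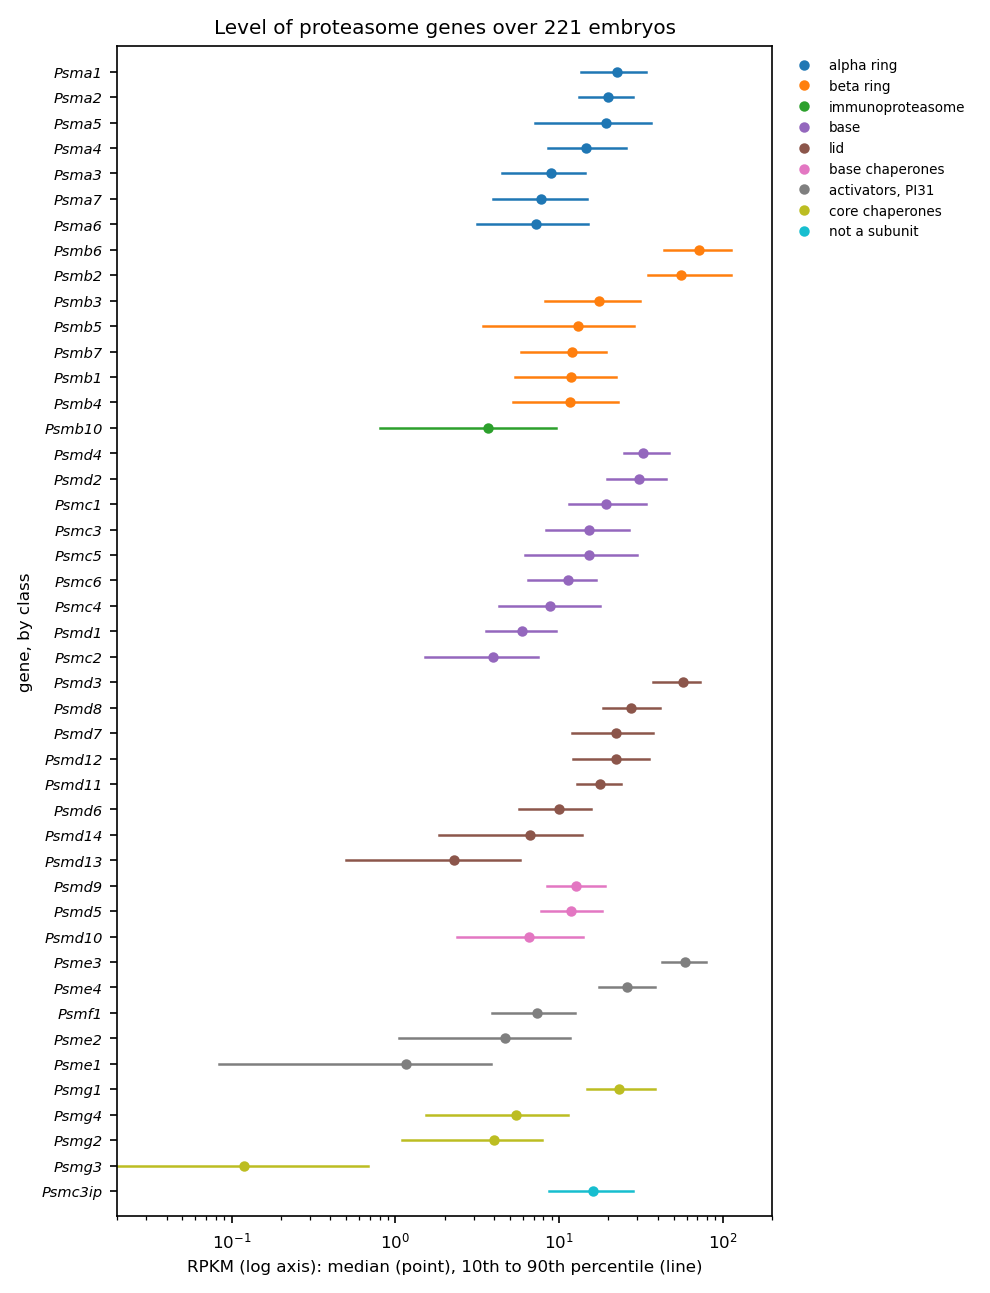
Median RPKM (points) and 10th to 90th percentile over all embryos (lines) for the members with a median above 0, ordered by class, on a log axis. Psmb6, Psme3, Psmd3 and Psmb2 stand highest, and the line of Psmg3 is cut at the axis limit. Psmb8, Psmb9, Psma8, Psmb11 and Psme2b had a median of 0 and are not drawn.

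Among the alpha subunits, which form the outer rings and the gate, Psma1 was highest. Its RPKM ran from 1.41 through a median of 22.1 to 46.3 in HFD embryos and from 0.466 through 24.03 to 38.8 in LFD embryos. Psma6 was lowest, with 0.628, 8.19 and 25.5 RPKM (lowest, median and highest) in HFD and 0, 6.54 and 48.9 RPKM in LFD embryos. For both genes the diets overlapped over most of their range. The order of the middle of the ring was less clear, since the 10th to 90th percentiles of all 7 alpha subunits overlapped those of their neighbours.

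The beta ring was led by Psmb6, the subunit with caspase-like activity, at 23.6, 72.7 and 234 RPKM in HFD and 27.97, 70.4 and 251 RPKM in LFD embryos. The other active subunits were lower. Psmb5, which carries the chymotrypsin-like site, had 0, 13.1 and 52.99 RPKM in HFD and 0, 12.6 and 34.6 RPKM in LFD embryos. Psmb7, which carries the trypsin-like site, had 2.19, 12.02 and 30.02 RPKM in HFD and 2.47, 11.9 and 26.8 RPKM in LFD embryos. Psmb2, a structural beta subunit, came second at a median of 55.5 RPKM over all embryos, and Psmb4 was lowest at 11.7 RPKM.

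In the base, Psmd4, the ubiquitin receptor, was highest at a median of 32.3 RPKM over all embryos, and the ATPase Psmc2 was lowest at 3.97 RPKM. The lid held the most even gene. Psmd11, a scaffold subunit, had the smallest coefficient of variation over embryos of the 50 genes, 24.4%, followed by Psmd3 at 26.7%, whereas the lid subunit Psmd13, at a much lower level, reached 80.5%. Of the chaperones, Psmd9 (12.7 RPKM), Psmd5 (11.7) and Psmd10 (6.53) of the base lay close together, and of those that build the core, Psmg1 stood at a median of 23.2 RPKM and Psmg3 at 0.119 RPKM.

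The proteasome activators differed widely in level. Psme3, the nuclear form of PA28, was the second highest of all members at 58.5 RPKM, and Psme4, which encodes PA200, stood at 25.9 RPKM. Psme1 and Psme2, which form the interferon-inducible PA28 of the cytoplasm, stood at 1.16 and 4.66 RPKM, and the inhibitor Psmf1 (PI31) at 7.36 RPKM. Psme2b, a copy of Psme2 without introns, had a median of 0 and was counted in 60 HFD and 50 LFD embryos (49.2% and 50.5%). The core subunits of other tissues were near the limit of detection. Psma8, known from spermatocytes, was counted in 18 HFD and 20 LFD embryos and Psmb11, known from thymic epithelium, in 53 and 36, where a count of 0 at the median depth allows a level of up to 0.526 CPM.

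The balance between the complexes was almost the same in both diets. The log2 ratio of mean RPKM per core subunit to mean RPKM per regulatory subunit was 0.25 ± 0.36 (SD) in HFD and 0.23 ± 0.33 (SD, n = 99) in LFD embryos, a difference of 0.013 against that spread, and it lay above 0 in 167 embryos (75.6%). Mean RPKM per subunit was lower in the alpha than in the beta ring in every embryo. The log2 ratio of alpha to beta stood at -0.99 ± 0.40 in HFD and -0.97 ± 0.36 in LFD embryos. The base stood slightly below the lid, at -0.30 ± 0.29 in HFD and -0.37 ± 0.30 in LFD embryos. Such means weigh the highest genes most, as Psmb6 and Psmb2 in the beta ring (medians of 71.8 and 55.5 RPKM). By the median of the subunit medians, the alpha ring (14.7 RPKM) lay slightly above the beta ring. By that measure the core (13.9 RPKM) lay slightly below the regulatory particle (15.2 RPKM). The summed core level varied more over embryos (SD 0.34) than the summed regulatory level (SD 0.20).

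Counts of subunits of one complex followed each other only loosely over embryos. Over the 91 pairs of core subunits the median Pearson correlation of log2(CPM + 1) was 0.188 over all embryos, with 30 pairs below 0. It was 0.117 over the 136 pairs of regulatory subunits and 0.12 over the 238 pairs between the complexes, where the pairs of all 12611 genes with a median count no lower than the lowest tested member had a median of 0.036 and a 5th to 95th percentile of -0.26 to 0.345. The extremes lay within the core, at 0.677 for Psma2 with Psmb2 and -0.542 for Psma1 with Psmb6. Points of these correlations share a library and its depth, and some members had low counts, as Psmd13 with a median of 44 counts. How far noise in single-embryo counts lowers the correlations was not tested, and they are given as a description without a test.

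The effect of paternal diet was tested by edgeR's quasi-likelihood method on all 14820 genes that passed the filter. Of the 44 members tested, 1 passed an adjusted p of 0.05, where 2.12% of all genes tested did (314 genes, 159 higher and 155 lower in HFD embryos). This gene was Psme4, which was higher in HFD embryos. At an unadjusted p under 0.05 there were 4 members (9.09%), against 12.8% of all genes tested. The estimate was above 0 for 32 of 44 members (72.7%), with a median log2 fold change of 0.08, against 51.3% and 0.0044 over all genes tested, and these estimates are not independent of each other since they come from the same embryos. It was above 0 for 29 to 34 of the 44 over the other fits, and by limma-voom 30 were above 0 where the median of all genes was -0.02. With no filter on low counts, the median was 0.08 for these 44 and 0.06 for all genes, of which 58.4% were above 0.

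**Figure D2:**
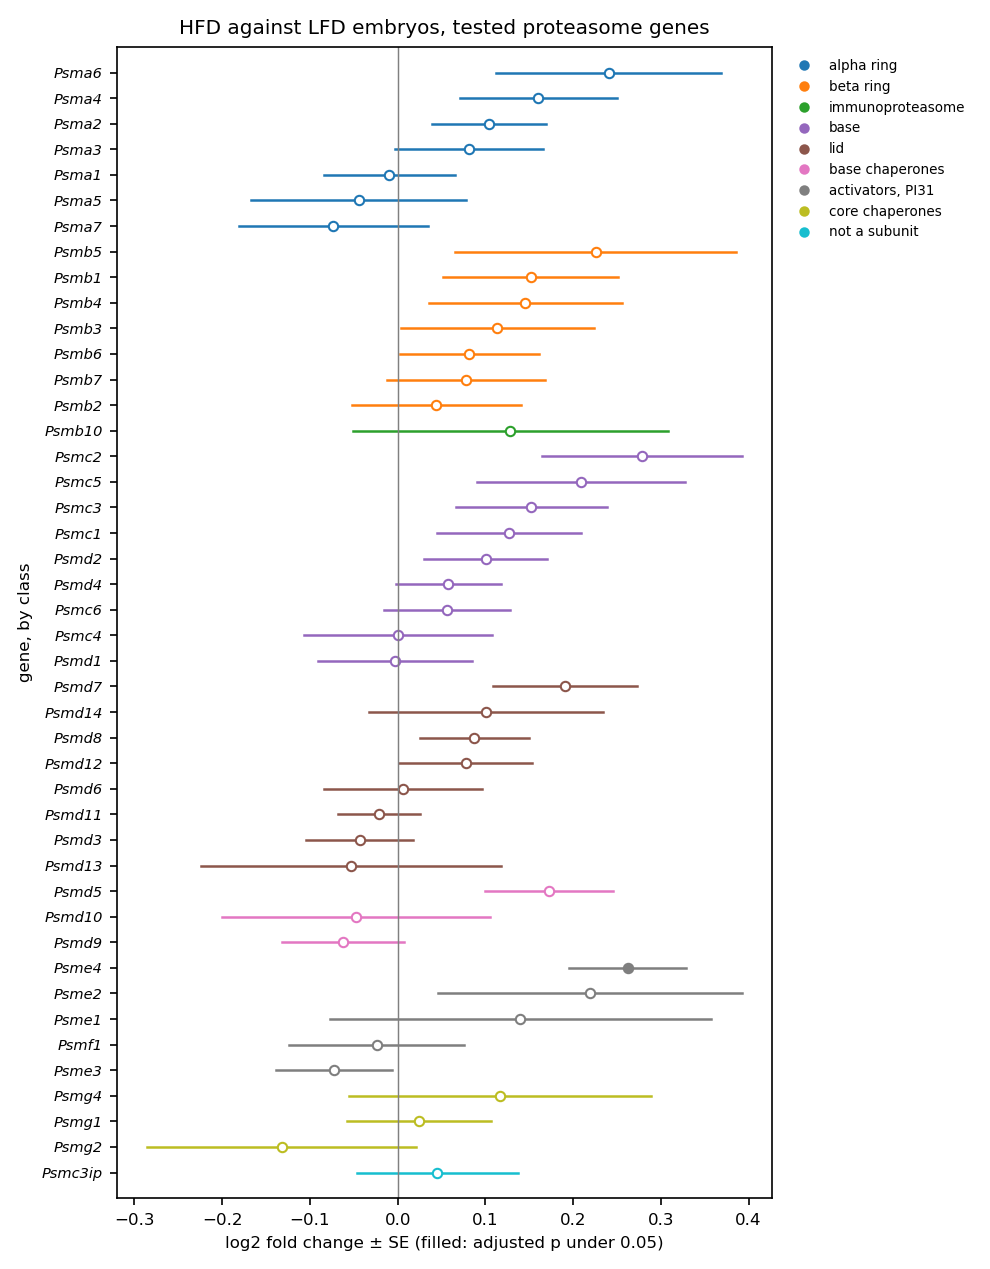
Log2 fold change of HFD against LFD embryos ± SE for the 44 tested members by class, with filled points for an adjusted p under 0.05. Psme4 is the only filled point, and all 7 beta-ring points lie to the right of 0, as they did in each fit but those by limma-voom, where 6 did.

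Psme4 (chromosome 11, 30771726 to 30880361, plus strand, GRCm38) encodes PA200, a large activator that opens the core particle without ATP and is known for the degradation of acetylated histones in spermatids and after DNA damage. Its level per embryo was 111.5, 228 and 545 CPM (lowest, median and highest) in HFD embryos and 73.9, 205 and 549 CPM in LFD embryos. The diets overlapped widely: no HFD embryo exceeded the highest LFD embryo, and 83 HFD embryos lay above the LFD median and 39 did not. The fitted log2 fold change was 0.26 (SE 0.067), a 1.2-fold difference (interval of 2 SE 0.13 to 0.40), with p = 0.000115 and an adjusted p of 0.0114 by edgeR's quasi-likelihood test. DESeq2 and limma-voom each called the same member and no other. Without the 11 embryos high in macrophage markers it was also 0.26 and was called (adjusted p = 0.0154). No exon of another annotated gene overlapped its exons.

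The titles number the embryos within each diet, and ranges of 10 consecutive numbers differed in Psme4. In 9 of the 11 ranges that held embryos of both diets, the HFD mean was the higher one. The difference in mean log2(CPM + 1) ran from -0.32 for numbers 11 to 20 to 0.72 for numbers 51 to 60. The largest differences lay in adjoining ranges, numbers 31 to 70, at 0.61, 0.43, 0.72 and 0.43. In the other ranges the difference was at most 0.40 (numbers 81 to 90), and the diet difference in Psme4 was thus uneven over the numbers. Numbers above 110 were HFD embryos alone. The labels do not say what the numbers stand for.

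**Figure D3:**
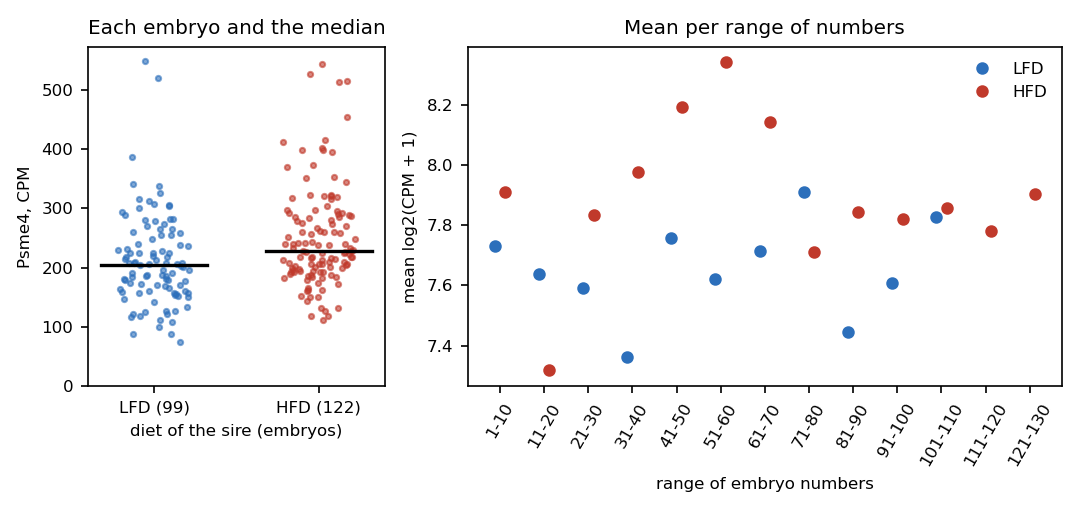
Left, Psme4 in CPM for each embryo by diet of the sire, with the median as a line; right, mean log2(CPM + 1) per range of 10 embryo numbers. The medians are 228 CPM in HFD and 205 CPM in LFD embryos, and the HFD mean is higher in 9 of 11 ranges with both diets. The largest differences lie in the ranges from 31 to 70.

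The upstream sequence of Psme4 is shown because it is the member that passed the test. It covers chr11:30771525-30771725 on the plus strand (GRCm38.p6, RefSeq start, with bases in annotated exons left out). Of 5 motifs searched on both strands in the 250 bases before each start, only the GC box of SP factors, GGGCGG, matched, and its capitals begin 58 bases before the start. The GC box was found in 32.7% of all 32851 promoter windows and in 51.1% of the 45 windows of the 42 members that the table of promoters held.
Psme4: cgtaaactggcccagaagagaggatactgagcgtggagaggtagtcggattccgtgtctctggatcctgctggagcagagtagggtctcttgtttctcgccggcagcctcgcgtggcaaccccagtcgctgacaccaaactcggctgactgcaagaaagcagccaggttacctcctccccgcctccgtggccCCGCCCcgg

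The remaining classes gave no call between the diets (edgeR's quasi-likelihood test, Benjamini-Hochberg adjusted p), and for each the log2 fold change of the gene with the smallest p is given. The 7 alpha subunits had estimates from -0.07 to 0.24, the last for Psma6 (SE 0.13, adjusted p = 0.424). The 7 beta subunits had estimates from 0.04 to 0.23, and the smallest p belonged to Psmb1, a structural subunit (0.15, SE 0.10, adjusted p = 0.559). In the base, the ATPase Psmc2 had the largest estimate of the 44 tested members (0.28, SE 0.11, adjusted p = 0.221). In the lid, Psmd7 stood at 0.19 (SE 0.082, adjusted p = 0.264).

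Among the chaperones, Psmd5 of the base stood at 0.17 (SE 0.073, adjusted p = 0.248) and Psmg2 of the core at -0.13 (SE 0.15, adjusted p = 0.796). Within the activators, the estimates were -0.07 (SE 0.066) for Psme3, 0.14 (SE 0.22) for Psme1, 0.22 (SE 0.17) for Psme2 and -0.02 (SE 0.099) for Psmf1, none of them called. Without the 11 embryos Psme1 stood at 0.02 and Psme2 at 0.15, and Psme1 averaged 6.80 CPM in the 11, 3.45 in the other HFD embryos and 3.49 in LFD embryos. The constitutive catalytic subunits had log2 fold changes with intervals of 2 SE that held 0, from -0.09 to 0.55 for Psmb5, from -0.08 to 0.24 for Psmb6 and from -0.10 to 0.26 for Psmb7.

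The immunoproteasome subunits stood far below the constitutive catalytic ones. Psmb10 replaces Psmb7, and it was counted in 98.4% of HFD and 94.9% of LFD embryos, at 0, 3.61 and 13.9 RPKM in HFD and 0, 3.77 and 16.5 RPKM in LFD embryos. Its log2 fold change was 0.13 (SE 0.18, adjusted p = 0.839, edgeR). The log2 ratio of mean RPKM per immunoproteasome subunit to that of Psmb5, Psmb6 and Psmb7 was -4.86 ± 1.40 (SD) in HFD and -5.14 ± 1.91 (SD, n = 99) in LFD embryos, and it was below 0 in every embryo (0.01 RPKM was added to each mean). It was -3.95 ± 1.44 (SD, n = 11) in the HFD embryos above every LFD embryo in macrophage markers and -4.95 ± 1.37 (SD) in the other HFD embryos. A whole-embryo library sums its cells, so that more RNA per cell and RNA from added cells cannot be told apart.

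Psmb8, the inducible counterpart of Psmb5, had a median of 0 in both diets, with a count in 20 HFD and 12 LFD embryos (16.4% and 12.1%). Its highest embryo reached 11.85 CPM in HFD and 2.14 CPM in LFD. Of its 398 counts in HFD embryos, 318 (79.9%) lay in the 11 embryos above every LFD embryo in macrophage markers, which held 9.23% of all HFD counts. Mean Psmb8 was 4.45 CPM in those 11, 0.144 CPM in the other HFD embryos and 0.0889 CPM in LFD embryos.

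Psmb9, the counterpart of Psmb6, was high in a few of those embryos. It was counted in 42 HFD and 25 LFD embryos, and 182 of its 427 HFD counts (42.6%) lay in the same 11 embryos. Its mean was 2.94 CPM in the 11, 0.375 CPM in the other HFD embryos and 0.240 CPM in LFD embryos. The mean of the 11 rested on 3 embryos at 12.5, 8.09 and 7.30 CPM, the median was 0.871 CPM, and the highest of the other HFD embryos reached 5.59 CPM. Psmb10 had 12.1% of its HFD counts in the 11 embryos, nearer to their 9.23% share of all counts.

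Both genes were under the filter, and an edgeR fit with no filter called them together with Psme4, 3 of 50 members, where 15.4% of 45512 genes were called. The log2 fold change was 2.32 (SE 0.46, adjusted p = 3.6e-05) for Psmb8 and 1.27 (SE 0.42, adjusted p = 0.025) for Psmb9. Without the 11 embryos, an alternative chosen after seeing the data, they were 0.58 (SE 0.42, adjusted p = 0.398) and 0.65 (SE 0.42, adjusted p = 0.325), and neither was called. In the 11 embryos, the macrophage genes Lyz2 (661 CPM), Ctss (360 CPM) and Tyrobp (48.99 CPM) stood at 1.78, 1.54 and 0.0397 CPM in the other HFD embryos. All 12 markers were higher in mean in the 11 than in either other set. The 11 were chosen by the summed level of these 12 markers, so that difference follows largely from the choice. The part of this RNA in the result was not tested. The fit without the 11 cannot decide it, since it leaves out HFD embryos alone, chosen by their marker level. Exons of Psmb9 share 212 bases with Tap1 and those of Psmb8 498 bases with Gm20496 on the opposite strand, and reads there cannot be told apart, since the Smart-seq2 protocol does not keep strand.

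**Figure D4:**
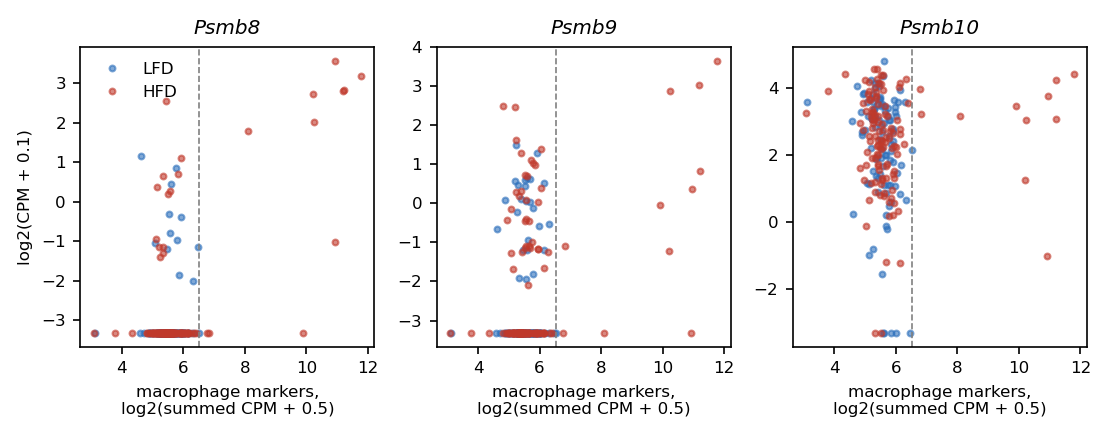
Psmb8, Psmb9 and Psmb10 as log2(CPM + 0.1) against the summed macrophage marker level of each embryo, with HFD and LFD embryos in different colours and the highest LFD embryo as a dashed line. To the right of the line lie 11 HFD embryos, 8 of which held a Psmb8 count (72.7%), against 12 of the other HFD embryos (10.8%), whereas Psmb10 runs from 0.392 to 21.5 CPM in the 11 and from 0 to 23.7 CPM in the other HFD embryos.

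Class I genes, which receive the peptides of the immunoproteasome, were read beside it. Of 10 listed genes 5 were tested, and B2m and H2-D1 were called, both higher in HFD embryos, where 2.12% of all genes tested were called, with log2 fold changes of 1.24 (adjusted p = 2.22e-06) and 1.25 (adjusted p = 0.000272, edgeR). B2m averaged 146.5 CPM in the 11 embryos, 10.6 in the other HFD embryos and 9.76 in LFD embryos. H2-D1 averaged 420 CPM in the 11, 21.9 in the other HFD embryos and 24.7 in LFD embryos, and it turned to -0.15 without the 11 (adjusted p = 0.823), where B2m stood at 0.15 (adjusted p = 0.735). DESeq2 also called both, and limma-voom called none of the 5.

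Genes that work with the proteasome under other symbols were read from lists chosen for their role. None of 13 tested partners, such as the regulatory subunits Adrm1 and Sem1, the assembly factor Pomp and the transcription factor Nfe2l1, passed the test between the diets by edgeR, DESeq2 or limma-voom. An unadjusted p under 0.05 was reached by 3, 4 and 3 of the 13 (23.1% by edgeR). Over all genes tested the shares were smaller, at 12.8%, 14.7% and 14.4%. Of 12 genes of ubiquitin supply and shuttling 1 was called, the shuttle factor Ubqln2, lower in HFD embryos (log2 fold change -0.42, SE 0.13, adjusted p = 0.0499, edgeR). This call stood at the threshold and held in 5 of 11 other fits (log2 fold change -0.52 to -0.26). Without the 11 embryos high in macrophage markers it stood at -0.41 and was not called (adjusted p = 0.0883). DESeq2 called the shuttle factor Rad23b as well.

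The members were next related to the balance of 2-cell and oocyte transcripts. The genome activation level of an embryo was taken as the log2 ratio of summed 2-cell to summed oocyte transcripts, and slopes give the log2 change in a gene per unit of that level with diet in the model. The central range of embryos, from the 10th to the 90th percentile, spanned 1.24 units. Of 44 members 10 (22.7%) rose with the level, where 16.9% of 14789 genes tested did, and 9 (20.5%) fell, where 17.5% did. The median slope was 0.04 over the members and -0.02 over all genes tested.

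**Figure D5:**
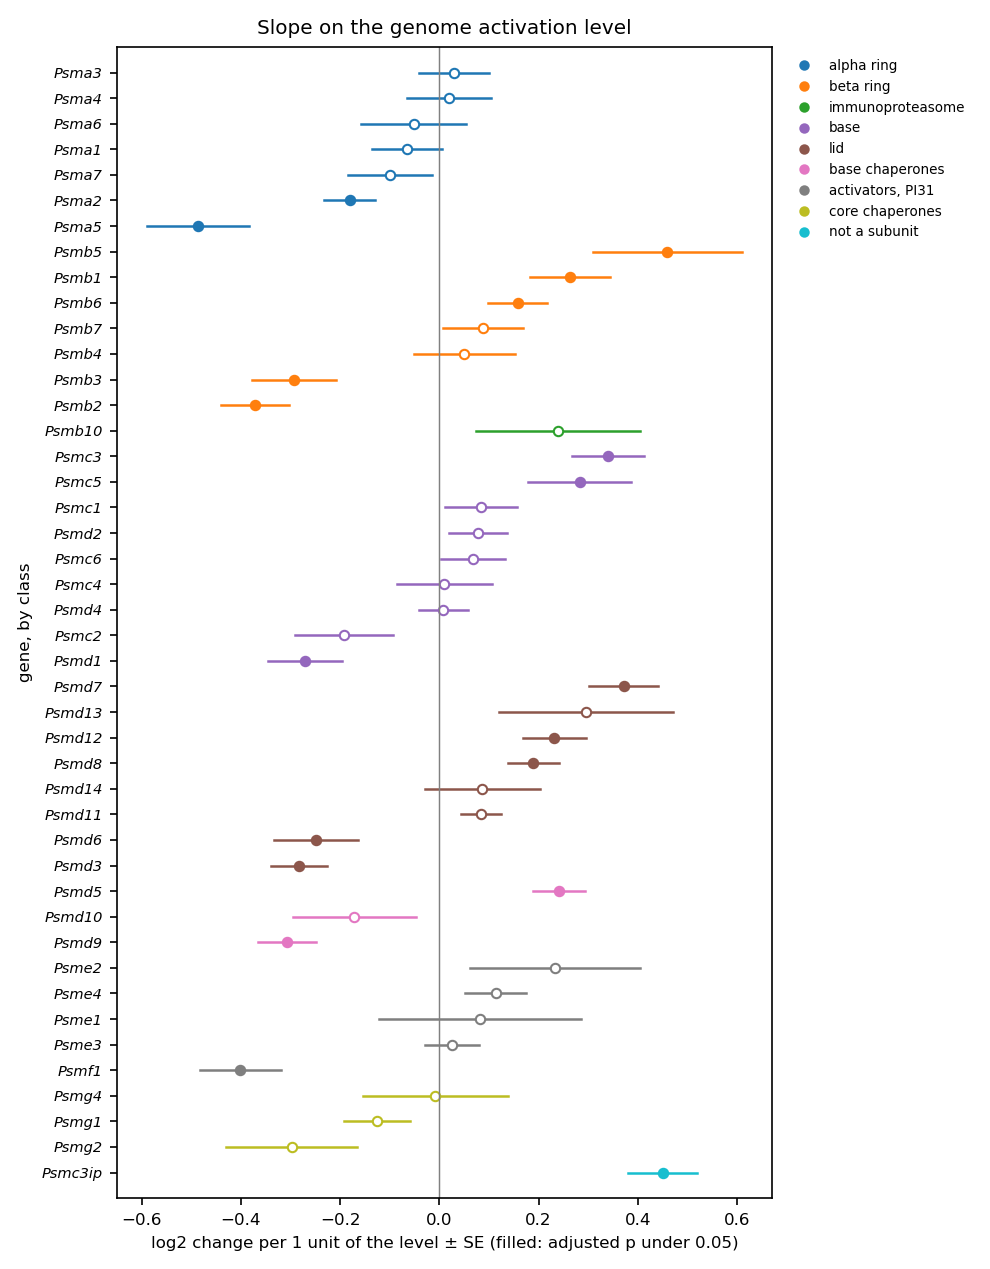
Slope on the genome activation level ± SE for the 44 tested members by class, in log2 per unit of the level, with filled points for an adjusted p under 0.05. The 10 rising and 9 falling members are spread over the classes, and rising and falling genes stand side by side within the beta ring, the base, the lid and the base chaperones.

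Rising and falling genes occurred within the same complex. In the core, Psmb5 rose most (0.46, SE 0.15, adjusted p = 0.0107), with Psmb1 and Psmb6 at 0.26 and 0.16, whereas the alpha-ring subunit Psma5 fell most of all members (-0.49, SE 0.10, adjusted p = 5.16e-05), with Psmb2 at -0.37, Psmb3 at -0.29 and Psma2 at -0.18. In the base, the ATPases Psmc3 (0.34) and Psmc5 (0.28) rose and Psmd1, the scaffold of the base, fell by 0.27. In the lid, Psmd7, the partner of the deubiquitinase Psmd14, rose most (0.37, SE 0.070, adjusted p = 4.18e-06), with Psmd12 at 0.23 and Psmd8 at 0.19, and Psmd3 and Psmd6 fell by 0.28 and 0.25.

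Outside the particles, the inhibitor Psmf1 fell by 0.40 (SE 0.082, adjusted p = 2.36e-05). The base chaperones parted, with Psmd5 at 0.24 and Psmd9 at -0.31, both called. The slope of Psmd5 was 0.12 without the 2 embryos farthest from the median level (adjusted p = 0.118), 0.11 by limma-voom and 0.02 with the number of genes counted as a covariate, none of them called. Psmc3ip, the recombination factor, had the smallest p of the symbols (0.45, SE 0.070, adjusted p = 2.57e-08). Psme4 was not called (0.11, SE 0.061, adjusted p = 0.141), and neither was Psmb10 (0.24, SE 0.16, adjusted p = 0.263). Tests of slopes are edgeR's quasi-likelihood F-tests with Benjamini-Hochberg adjustment.

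All 19 called slopes kept their sign when each diet was fitted alone. Of them, 16 were called among HFD and 5 among LFD embryos, where 27.9% and 8.67% of all genes tested were called, and no test compared the slopes of both diets. The level was correlated with total counts (Pearson r = -0.228) and with the number of genes counted (r = -0.512), both over all embryos and given as a description. With that number as a covariate, 12 of the 19 were called with the same sign, and Psmb1 (-0.03) and Psmb6 (-0.16) changed sign without being called. With number ranges as a covariate, all 19 kept their sign and 15 were called. Those not called were Psmb1, Psmb5, Psmb6 and Psmc5, which include every rising core subunit. Psmb5 was not called when each diet was fitted alone (0.41 in HFD and 0.57 in LFD embryos).

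Proteasome genes are known to respond to Nfe2l1, which binds antioxidant response elements, and upstream sequences are shown for the members that held the core of this element, TGACNNNGC, on either strand. There were 5, Psmb5, Psmb6, Psmc6, Psmd12 and Psmd9, in 11.1% of the 45 member windows, against 10.2% of all 32851 windows. Of these, Psmb5, Psmb6 and Psmd12 rose with the genome activation level, Psmd9 fell, and Psmc6 stood at 0.07 without a call. With the number of genes counted as a covariate, Psmb6 changed sign and Psmd12 was not called. With number ranges as a covariate, Psmb5 and Psmb6 were not called. Nfe2l1 itself fell with the level (-0.20, adjusted p = 0.0187, edgeR's quasi-likelihood F-test). Regulation through this element was not tested. Capitals mark this core, the GC box and, in Psmd9, a match to GAAANNGAA, the core of the interferon-stimulated response element, and in Psmd9 the first of these overlaps a GC box. In order, the windows are chr14:54618023-54618245 (minus strand), chr11:70525107-70525356, chr14:45329574-45329787, chr11:107479278-107479483 and chr5:123227940-123228189 (plus strand), from RefSeq on GRCm38.p6 with annotated exons left out.
Psmb5: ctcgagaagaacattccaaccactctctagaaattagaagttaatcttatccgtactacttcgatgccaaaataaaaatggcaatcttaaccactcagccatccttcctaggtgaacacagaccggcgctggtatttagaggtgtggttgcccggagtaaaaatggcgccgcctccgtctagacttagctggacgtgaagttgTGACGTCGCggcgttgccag
Psmb6: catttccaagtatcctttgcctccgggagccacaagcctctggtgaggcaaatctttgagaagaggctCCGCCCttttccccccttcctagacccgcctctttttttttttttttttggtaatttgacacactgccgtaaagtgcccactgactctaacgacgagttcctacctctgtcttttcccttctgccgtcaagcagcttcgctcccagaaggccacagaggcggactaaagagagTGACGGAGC
Psmc6: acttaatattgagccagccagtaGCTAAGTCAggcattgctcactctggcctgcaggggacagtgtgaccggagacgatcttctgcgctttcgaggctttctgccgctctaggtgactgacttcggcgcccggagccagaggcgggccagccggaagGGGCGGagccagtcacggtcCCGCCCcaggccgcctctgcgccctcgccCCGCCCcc
Psmd12: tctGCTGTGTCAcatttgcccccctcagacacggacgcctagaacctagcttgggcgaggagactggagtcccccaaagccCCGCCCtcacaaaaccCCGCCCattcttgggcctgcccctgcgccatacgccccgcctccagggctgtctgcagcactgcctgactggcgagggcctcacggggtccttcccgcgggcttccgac
Psmd9: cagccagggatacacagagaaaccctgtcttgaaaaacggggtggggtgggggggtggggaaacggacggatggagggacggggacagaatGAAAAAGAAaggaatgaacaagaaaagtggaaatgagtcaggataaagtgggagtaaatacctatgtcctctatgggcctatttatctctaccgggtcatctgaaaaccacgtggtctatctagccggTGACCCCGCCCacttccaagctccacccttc

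CCAAT, another of the motifs searched, was found in 33.3% of member windows against 33.8% of all, and in 5 of the 7 alpha-ring genes (Psma1, Psma2, Psma3, Psma6 and Psma7). The core of the interferon-stimulated response element was found in 6.67% against 7.13%, and the gamma-activated site, TTCNNNGAA, in 4.44% against 7.02%. The latter matched Psmb8 and the core chaperone Psmg1. A match is a run of letters and not an occupied site.

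Slopes of the ubiquitin genes and partners were taken from the same fit, in which 16.9% of all genes rose and 17.5% fell. Of 12 genes of ubiquitin supply, 5 rose, among them Ubqln2 (0.70) and the polyubiquitin gene Ubb (0.53), and 1 fell, the activating enzyme Uba1 (-0.47). Of 13 tested partners, 2 rose and 4 fell, with Adrm1, the ubiquitin receptor of the regulatory particle, at 0.29 and Txnl1, a thioredoxin bound to it, at -0.43.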

How the data were processed

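Counts per gene of 221 single-embryo Smart-seq2 libraries (122 HFD, 99 LFD) were analysed. The authors aligned reads with STAR 2.7.10a after Trim Galore 0.6.6 and deposited raw counts made with featureCounts 2.0.3 on GRCm38 (Ensembl 102 annotation), by gene name, with a strand setting of 2 and multi-mapped reads left out. Since Smart-seq2 does not keep strand, reads of the other orientation went uncounted or to an overlapping gene. Read ends rather than fragments were counted (65.8% of counts above 0 were even). No sample column was left unused.

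The table of counts was filtered with filterByExpr and tested with edgeR 4.0.16 (TMM, quasi-likelihood, R 4.3.3), with Benjamini-Hochberg adjustment over all genes tested and a threshold of 0.05. limma 3.58.1 and DESeq2 1.42.0 gave alternatives. CPM and RPKM were computed from the deposited counts and the exon length in the same table. Scripts were tested on simulated data.

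Members and lists were chosen with earlier results of these data known. Named were called members, per class the smallest p and the highest and lowest level, catalytic subunits, activators, extreme slopes and called genes of the partner, ubiquitin and class I lists, with further members as examples chosen after their values were seen. Copies such as pseudogenes can take or lose reads, so members with them are uncertain.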

Additional observations from a re-analysis of the deposited data

How the results depend on the processing

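Psme4 was called in all 11 other fits of the diet comparison (log2 fold change 0.25 to 0.31, adjusted p 0.000347 to 0.0244), and its ratio of mean CPM with each embryo left out in turn ran from 0.23 to 0.26. Among these fits was an edgeR fit with the Y-linked level as a covariate, in which 269 genes were called. With the replicate block by embryo number (limma-voom), 1 member and 366 genes were called, as against 1 and 325 without it. The numbers did not pair embryos: of 94 shared numbers, 17 pairs correlated above 0.1 (median 0.00544). Member counts moved in 1 of these fits, to 3 with no filter on low counts. Over all genes, 314 calls became 7030 with no filter (4943 higher, 2087 lower), 80 with number ranges as a random effect (43 higher, 37 lower), 594 with number ranges as a covariate (37.7% higher) and 547 without libraries with few genes (59.2% higher). With no filter and without the 11 embryos high in macrophage markers, chosen after seeing the data, 6258 genes and 1 member were called. H2-D1 turned to -0.0094 with the macrophage level as a covariate and to -0.15 and -0.16 without the 11 embryos, with and without the filter. For the slope, 19 members and 5081 genes became 6 and 1282 in LFD embryos alone, a smaller sample. In the other fits 16 to 20 members were called, some of them outside the 19. By limma-voom 1869 genes rose and 5060 fell with the level, where the median of all genes was -0.15. Sums of classes moved by less than 1 SD with nuclear counts or medians. The cause of these changes was not tested. Reads without molecular identifiers and shared sires limit the precision.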
